A study of Mus musculus with 36 samples.

Results

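Simple epithelial keratins and desmosome components were followed through 12 groups of mouse embryonic stem cell libraries. The 10 genes were 4 keratins (Krt7, Krt8, Krt18, Krt19) and 6 genes of the desmosome (Dsp, Dsg2, Dsc2, Jup, Pkp2, Perp), taken by name from a count table of 55335 genes. They were selected on measured values of these same libraries: Dsp is among the genes whose response to IAA differed most between days. For that reason the values of Dsp are a description here, no test of Dsp is given in any comparison, and all counts of genes passing a test are over the other 9. The other 9 were also picked with earlier results of these data known, including the rise of Krt8 and Krt18 to day 6. Their p-values do not account for this choice.

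Keratins build intermediate filaments as obligate heteropolymers, each made of a type II chain (Krt7, Krt8) and a type I chain (Krt18, Krt19). Simple epithelial keratins are those of single-layered epithelia, and Krt8 and Krt18 are the first to appear in the mouse embryo, in the trophectoderm. Desmosomes are the junctions that anchor these filaments at the cell surface. Their cadherins (Dsg2, Dsc2) cross the membrane and bind those of the neighbouring cell, the armadillo proteins plakoglobin (Jup) and plakophilin 2 (Pkp2) sit beneath them, and desmoplakin (Dsp) ties this plaque to the filaments. Perp is a membrane protein of the desmosome that was first found as a p53 target.

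The series holds 36 RNA-seq libraries of mouse embryonic stem cells, and its title names the NuRD complex and CTCF sites in the genome. Each group is labelled with a treatment, DMSO, BPK25 or IAA, and with day 0, 2, 4 or 6, and has 3 libraries. DMSO is the solvent control. BPK25 is a compound known here by its code name and reported to lower NuRD subunit proteins. IAA is the plant hormone auxin, which triggers the breakdown of proteins that carry a degron tag. All groups share the labelled culture, a serum replacement medium with LIF, typically on gelatin with irradiated mouse embryonic fibroblasts as feeders. The labels name no tagged protein, dose, clone or starting event for the day count, and do not say whether the 3 libraries of a group come from separate cultures. The p-values therefore weigh differences only against the library-to-library spread, part of which may be technical.

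The libraries held 6621288 to 16497799 counts each. Levels are CPM, the counts of a gene relative to the TMM-scaled total of its library, and a gene is called when its adjusted p in edgeR's quasi-likelihood test is under 0.05. The embryonic stem cell label was checked on 8 marker genes: their summed level was 2830 CPM in DMSO at day 0 and 691 CPM at day 6, and each of the 8 had counts in every group. BPK25 at day 4 stood apart from the other days of that compound: 26.2% of all 17394 tested genes were called higher and 26.8% lower than in DMSO, against 3.08% to 7.12% in either direction at days 0, 2 and 6. In bulk RNA, more cells that express a gene and more RNA per cell cannot be told apart.

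Krt8 and Krt18 lie back to back on chromosome 15 (mm10), Krt8 at chr15:101996698-102004482 on the minus strand and Krt18 at chr15:102028180-102032027 on the plus strand. Their starts are 23.7 kb apart, with Krt7 593 kb from Krt8 at chr15:101411043-101430313 on the plus strand. Krt19 (chr11:100140810-100148665, minus strand) and Jup (chr11:100368958-100397763, minus strand) have starts 249 kb apart. Dsp spans chr13:38151294-38198577 on the plus strand. The 10 genes lie on 6 chromosomes, and all are protein coding in GENCODE M21.

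Upstream sequence is shown for the pair that moved together through the study, Krt8 and Krt18, and for Dsp, whose pattern differed from theirs. The sequences are RefSeq's (GRCm38.p6), read 5′ to 3′ on the gene's strand and limited to bases before both the RefSeq and the GENCODE start, at chr15:102004483-102004592 (Krt8, minus strand), chr15:102027966-102028179 (Krt18, plus strand) and chr13:38151044-38151293 (Dsp, plus strand). Capitals mark matches to the motifs named below.
Krt8: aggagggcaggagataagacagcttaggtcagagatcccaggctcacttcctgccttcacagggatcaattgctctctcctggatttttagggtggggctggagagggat
Krt18: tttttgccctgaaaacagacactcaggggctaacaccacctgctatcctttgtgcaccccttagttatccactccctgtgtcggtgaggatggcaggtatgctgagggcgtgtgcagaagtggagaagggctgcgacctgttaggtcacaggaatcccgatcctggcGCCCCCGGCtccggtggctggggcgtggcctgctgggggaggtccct
Dsp: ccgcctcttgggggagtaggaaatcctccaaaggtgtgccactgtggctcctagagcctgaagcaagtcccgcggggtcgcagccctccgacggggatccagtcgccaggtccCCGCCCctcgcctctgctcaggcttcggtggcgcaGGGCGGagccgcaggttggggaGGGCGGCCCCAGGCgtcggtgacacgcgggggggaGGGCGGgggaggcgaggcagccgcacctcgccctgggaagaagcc

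Of the 10 genes, 5 (Krt7, Krt8, Krt18, Dsp and Jup) had an entry among the RefSeq promoters. Their 250 bases before the RefSeq start were searched on both strands for the letters TATAAA (the TATA box), the letters GGGCGG (known as the GC box), the letters CCAAT (the box of that name), the letters TGANTCA (the AP-1 site), the letters GCCNNNGGC (the AP-2 site) and the letters GGAATG (the TEAD site). Dsp held 4 GC boxes, beginning 137, 102, 80 and 45 bases before the start, and 1 AP-2 match 75 bases before it that shares a base with a GC box. Krt18 held 1 AP-2 match, 83 bases before its start, and Krt8 held none of the 6 motifs. Krt7 held 4 GC boxes and 2 AP-2 matches, and Jup 2 GC boxes and 2 CCAAT matches. The window of Krt7, chr15:101412153-101412402, lies before the RefSeq start but inside the GENCODE gene. Among 32851 promoter windows of the same length, a GC box was present in 32.7%, a CCAAT box in 33.8%, an AP-2 site in 13.7%, a TATA box in 12.4%, a TEAD site in 12.6% and an AP-1 site in 6.75%. The windows were 72.4% GC for Dsp, 60.4% for Krt18 and 58% for Krt8, beside a median of 52.4% over all windows. These matches are descriptions of letters, not of binding.

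Desmoplakin RNA took a low level or a high level in these groups, and the day of the higher level differed between treatments. In DMSO, Dsp stood at 248, 234 and 232 CPM in the 3 libraries of day 0, 207, 215 and 195 CPM at day 2, 833, 891 and 882 CPM at day 4, and 661, 709 and 668 CPM at day 6. With IAA it stood at 237, 247 and 247 CPM at day 0, 885, 846 and 911 CPM at day 2, 662, 641 and 676 CPM at day 4, and 626, 653 and 600 CPM at day 6. The IAA libraries were thus at the upper level at day 2, when the DMSO libraries were still at the lower one.

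With BPK25, Dsp stood at 233, 246 and 248 CPM at day 0, 228, 219 and 241 CPM at day 2, 798, 748 and 735 CPM at day 4, and 757, 783 and 780 CPM at day 6. BPK25 libraries therefore lay at the lower level at days 0 and 2 and at the upper level at days 4 and 6, as DMSO libraries did. The fitted log2 difference of IAA from DMSO was 0.03 ± 0.05 (SE, n = 3 against 3) at day 0, 2.1 ± 0.05 at day 2, -0.40 ± 0.04 at day 4 and -0.12 ± 0.04 at day 6. For BPK25 the same differences were 0.03 ± 0.05, 0.16 ± 0.05, -0.19 ± 0.04 and 0.19 ± 0.04. Both sets of differences share the DMSO libraries. Because Dsp was picked by its IAA response over days, these standard errors do not account for that choice. They are descriptive and stand for no test.

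Ordered by mean level, IAA day 2 (881 ± 32.9 CPM, SD, n = 3) and DMSO day 4 (869 ± 31.1) came first for Dsp and overlapped. BPK25 day 6 (773 ± 14.4) and BPK25 day 4 (760 ± 33.5) followed and overlapped each other. DMSO day 6 (680 ± 25.6), IAA day 4 (660 ± 18) and IAA day 6 (626 ± 26.4) formed a run of overlapping neighbours. Below a gap came IAA day 0 (243 ± 5.89), BPK25 day 0 (242 ± 8.26), DMSO day 0 (238 ± 8.89) and BPK25 day 2 (229 ± 10.9), each overlapping the next, and DMSO day 2 (206 ± 10.4) was lowest. No group lay between 243 and 626 CPM.

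**Figure D1:**
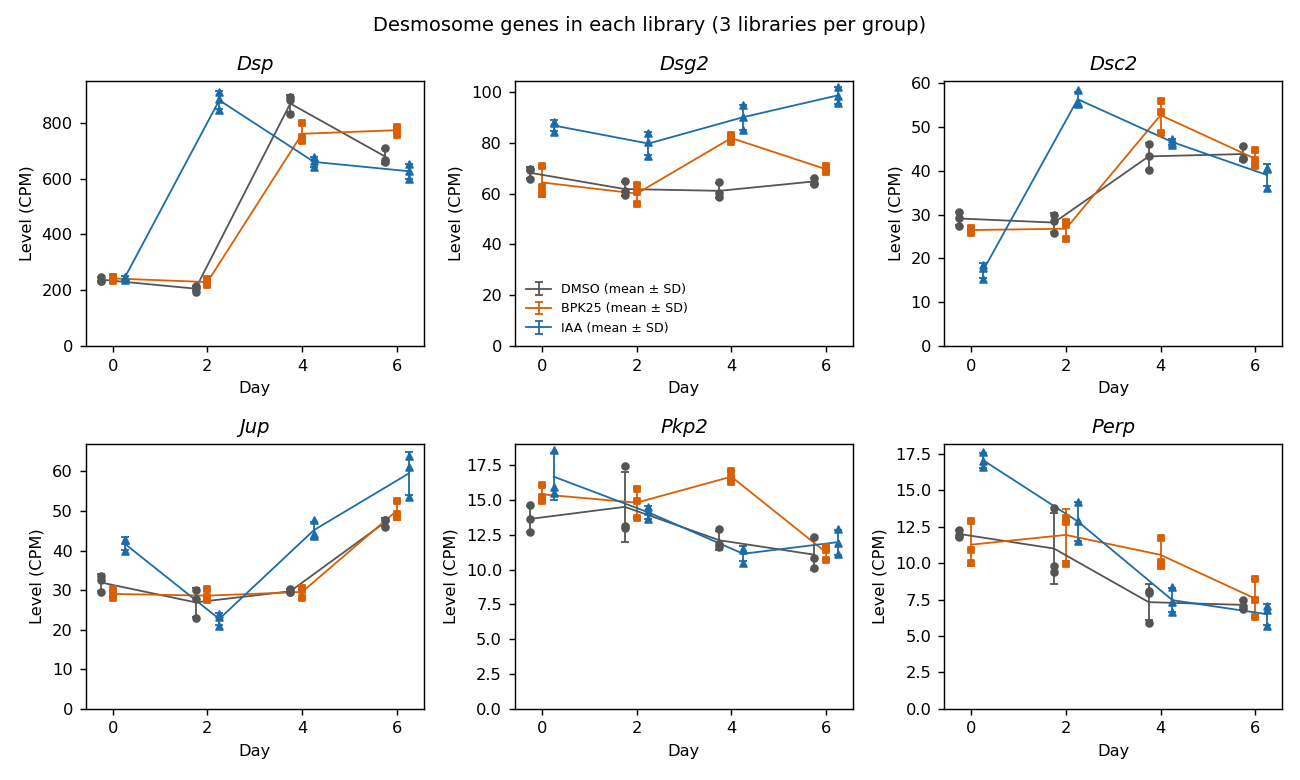
Levels in CPM (vertical axis, from 0) of the 6 desmosome genes by day (horizontal axis) in DMSO, BPK25 and IAA; points are libraries and lines join means ± SD (n = 3). Dsp in IAA is at 846 to 911 CPM at day 2, where DMSO is at 195 to 215 CPM, and Dsc2 has its highest mean, 56.3 CPM, in the same group.

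In DMSO the keratins rose late. Krt8 was at 24.4, 25.5 and 24.2 CPM in the day 0 libraries, 22.9, 23.8 and 28.2 CPM at day 2, 36.7, 34.6 and 34.7 CPM at day 4, and 75.6, 78.2 and 74.8 CPM at day 6. The day 4 libraries lay above all those of days 0 and 2, and the day 6 libraries lay above those of day 4. The increase over day 0 was 0.52 ± 0.08 on the log2 scale at day 4 (edgeR adjusted p = 3.39e-07) and 1.62 ± 0.07 at day 6 (edgeR adjusted p = 7.84e-26).

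Krt18, the type I partner of Krt8, was at 13.2, 13.8 and 11.5 CPM at day 0, 11.6, 12.3 and 11.9 CPM at day 2, 24.2, 24.3 and 25.6 CPM at day 4, and 59.9, 61.4 and 64.2 CPM at day 6 in DMSO. The groups of days 4 and 6 overlapped neither each other nor the earlier days. The log2 increase over day 0 was 0.93 ± 0.10 at day 4 (edgeR adjusted p = 3.72e-11) and 2.26 ± 0.08 at day 6 (edgeR adjusted p = 1.83e-28). The rise of Krt8 and Krt18 to day 6 was among the results known when the genes were picked.

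Krt19, a small type I keratin without a tail domain, was at 7.23, 5.51 and 4.50 CPM at day 0 and 27.5, 27.7 and 23.7 CPM at day 6 in DMSO, a log2 increase of 2.19 ± 0.14 (edgeR adjusted p = 3.9e-19). At day 4 its log2 difference from day 0 was 0.40 ± 0.18 and did not pass the test (edgeR adjusted p = 0.0693). It passed when DMSO day 0 replicate 1 (0.57, edgeR adjusted p = 0.0243) or DMSO day 4 replicate 2 (0.50, edgeR adjusted p = 0.0367) was left out. Krt7 had 1.36, 1.44 and 2.48 CPM at day 0 and 2.15, 4.56 and 2.48 CPM at day 6, where the groups overlap. Its log2 difference of 0.74 ± 0.28 passed the test (edgeR adjusted p = 0.019) but fell to 0.38 and lost the call without DMSO day 6 replicate 2 (edgeR adjusted p = 0.26), and lost it without DMSO day 0 replicate 1 (0.58) or replicate 2 (0.60), or when the 6 compared libraries were fitted alone (edgeR adjusted p = 0.0541).

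The desmosome genes did not move together in DMSO. Dsc2, a desmosomal cadherin, was at 29.3, 30.5 and 27.5 CPM at day 0, 46.2, 43.4 and 40.2 CPM at day 4 and 45.7, 42.7 and 43.0 CPM at day 6. Its log2 increase over day 0 was 0.58 ± 0.07 at day 4 (edgeR adjusted p = 5.23e-09) and 0.59 ± 0.07 at day 6 (edgeR adjusted p = 5.27e-10). Jup, which also serves adherens junctions, was at 32.6, 33.6 and 29.6 CPM at day 0 and at 47.7, 46.0 and 47.7 CPM at day 6, a log2 increase of 0.56 ± 0.07 (edgeR adjusted p = 2.41e-09).

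Perp fell, from 12.3, 11.9 and 11.8 CPM at day 0 to 7.98, 8.10 and 5.88 CPM at day 4 and 7.48, 6.83 and 7.09 CPM at day 6. The log2 changes of Perp were -0.68 ± 0.15 (edgeR adjusted p = 0.000135) and -0.74 ± 0.14 (edgeR adjusted p = 1.08e-05), and the groups did not overlap. Pkp2 had a log2 difference of -0.30 ± 0.11 at day 6 (edgeR adjusted p = 0.0144), which was lost without DMSO day 0 replicate 3 (edgeR adjusted p = 0.0622). Dsg2 had -0.16 ± 0.06 at day 4 (edgeR adjusted p = 0.0257), lost without DMSO day 4 replicate 1 (edgeR adjusted p = 0.116) or replicate 3 (edgeR adjusted p = 0.0757).

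Between days 0 and 4 of DMSO, 3 of the 9 tested genes went up and 2 went down, where 26.0% of all tested genes were called higher and 24.4% lower. At day 6, 6 were higher and 2 lower (33.2% and 29.5% of all genes), with a median log2 difference of 0.59 over the 9 beside 0.03 over all genes. Krt8 and Krt18, whose rise was known when the genes were picked, are among the 6. At day 2 edgeR called 0 of 9 (1.59% higher and 3.85% lower over all genes), with 2 of 9 at an unadjusted p under 0.05 and 0 of 9 by DESeq2. Without DMSO day 2 replicate 2, Jup was called lower at day 2 (log2 -0.31, edgeR adjusted p = 0.0292). The same interval carried other changes: over DMSO day 0 to day 6 the summed stem cell markers fell as given above and 8 of 8 were called lower, 8 of 8 endoderm markers were called higher (515 to 800 CPM summed), and 7 of 10 fibroblast feeder markers were called higher (46.1 to 163 CPM summed). Trophectoderm markers summed to 72.1 CPM at day 0 and 48.6 CPM at day 6, with 1 of 6 tested called higher and 3 lower. The part of these markers in the keratin values was not tested.

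**Figure D2:**
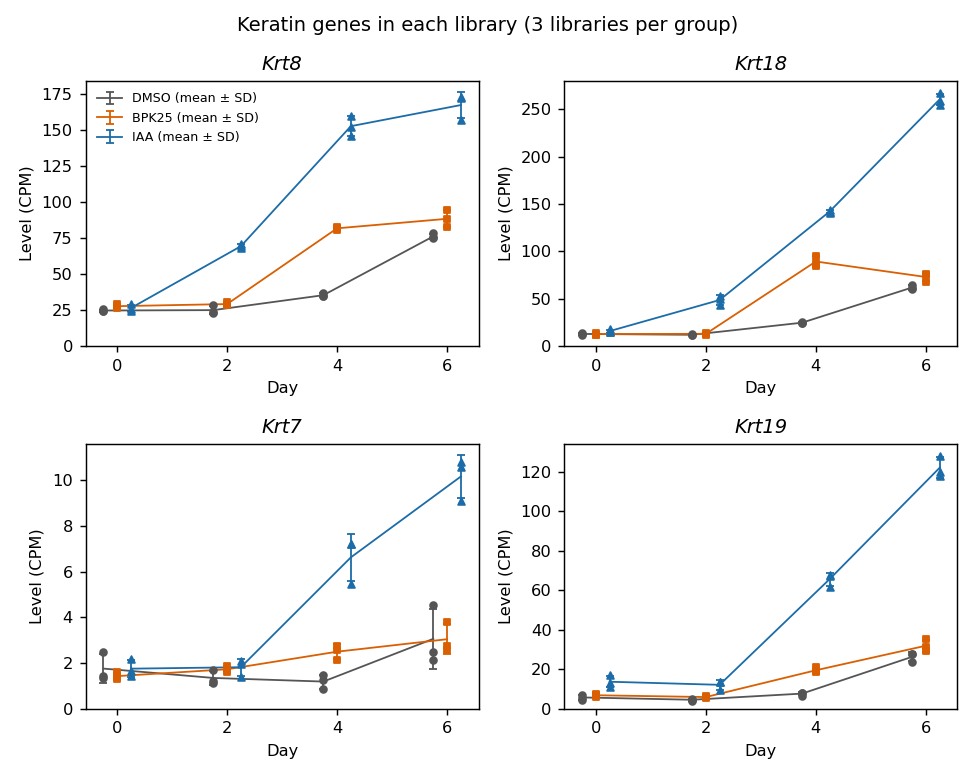
Levels in CPM (vertical axis, from 0, with its own scale in each panel) of the 4 keratin genes by day (horizontal axis) in DMSO, BPK25 and IAA; points are libraries and lines join means ± SD (n = 3). All 4 genes have their highest mean in IAA at day 6, and BPK25 lies above DMSO at day 4.

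With IAA, 2 of the 4 keratins (Krt18 and Krt19) were called higher than in DMSO at day 0, 3 (all but Krt7) at day 2, and 4 at days 4 and 6. Krt8 was at 25.5, 24.6 and 29.1 CPM in the IAA libraries of day 0, 69.6, 70.6 and 67.8 CPM at day 2, 160, 152 and 146 CPM at day 4, and 173, 157 and 172 CPM at day 6. From day 2 on, each IAA library lay above each DMSO library of its day. The log2 differences of Krt8 from DMSO were 1.45 ± 0.07 at day 2 (edgeR adjusted p = 8.16e-24), 2.11 ± 0.06 at day 4 (edgeR adjusted p = 1.69e-33) and 1.14 ± 0.05 at day 6 (edgeR adjusted p = 2.78e-25).

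Krt18 was at 15.2, 14.6 and 17.6 CPM with IAA at day 0, 52.5, 43.2 and 50.2 CPM at day 2, 140, 144 and 142 CPM at day 4, and 267, 259 and 255 CPM at day 6. Its log2 differences from DMSO were 2.02 ± 0.09 at day 2 (edgeR adjusted p = 1.4e-25), 2.53 ± 0.06 at day 4 (edgeR adjusted p = 2.44e-35) and 2.08 ± 0.05 at day 6 (edgeR adjusted p = 8.01e-36). At day 0 the difference of 0.28 ± 0.11 (edgeR adjusted p = 0.0356) was lost without IAA day 0 replicate 3 (0.21), or without DMSO day 0 replicate 1 (0.30) or 3 (0.21), with edgeR adjusted p from 0.0589 to 0.177.

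Krt19 was already higher with IAA at day 0, at 11.2, 13.0 and 16.9 CPM, and stood at 13.6, 13.4 and 9.40 CPM at day 2, 67.7, 61.9 and 67.3 CPM at day 4, and 128, 120 and 118 CPM at day 6. No IAA library overlapped the DMSO libraries of its day. The log2 differences of Krt19 were 1.22 ± 0.17 at day 0 (edgeR adjusted p = 3.06e-08), 1.37 ± 0.17 at day 2 (edgeR adjusted p = 1.01e-09), 3.10 ± 0.11 at day 4 (edgeR adjusted p = 1.82e-29) and 2.21 ± 0.07 at day 6 (edgeR adjusted p = 1.06e-29). At day 4 its mean was 65.6 ± 3.22 CPM against 7.69 ± 0.883 CPM, a fitted ratio of 8.60.

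Krt7 was at 1.64, 1.45 and 2.18 CPM with IAA at day 0, 1.40, 1.97 and 2.09 CPM at day 2, 7.22, 7.22 and 5.45 CPM at day 4, and 10.8, 10.6 and 9.11 CPM at day 6. Its log2 differences of 2.49 ± 0.24 at day 4 (edgeR adjusted p = 2.34e-12) and 1.81 ± 0.17 at day 6 (edgeR adjusted p = 1.06e-12) passed the test, and that of 0.49 ± 0.33 at day 2 did not (edgeR adjusted p = 0.213). Krt7 rests on few reads, 10 to 16 counts per library in DMSO at day 0.

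The cadherin Dsc2 changed direction with the day of IAA. It was at 18.4, 17.9 and 15.3 CPM at day 0, 55.5, 55.1 and 58.3 CPM at day 2, 45.9, 46.4 and 47.3 CPM at day 4, and 40.3, 40.6 and 36.1 CPM at day 6. The IAA libraries lay below all DMSO libraries at day 0 and above all of them at day 2. The log2 difference from DMSO was -0.75 ± 0.09 at day 0 (edgeR adjusted p = 1.15e-09), 1.01 ± 0.07 at day 2 (edgeR adjusted p = 1.23e-17) and 0.10 ± 0.06 at day 4 (edgeR adjusted p = 0.202). At day 6 it was -0.17 ± 0.06 (edgeR adjusted p = 0.0196), a call lost without DMSO day 6 replicate 1 (edgeR adjusted p = 0.134) or IAA day 6 replicate 3 (edgeR adjusted p = 0.171) and with DESeq2 (adjusted p = 0.0792).

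Dsg2, the other cadherin, was higher with IAA at each day. It was at 87.9, 88.1 and 84.4 CPM at day 0, 80.3, 83.9 and 74.9 CPM at day 2, 85.2, 90.1 and 94.9 CPM at day 4, and 95.5, 102 and 98.5 CPM at day 6, while the DMSO libraries of all days ranged from 58.8 to 69.7 CPM. The log2 differences were 0.35 ± 0.06, 0.37 ± 0.06, 0.56 ± 0.05 and 0.61 ± 0.05 at days 0, 2, 4 and 6, with edgeR adjusted p from 4.85e-14 at day 6 to 2.03e-06 at day 0.

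Jup, the plakoglobin gene, was at 42.7, 42.6 and 40.0 CPM with IAA at day 0, 21, 24 and 23.1 CPM at day 2, 43.6, 44.3 and 47.6 CPM at day 4, and 63.8, 53.5 and 61.1 CPM at day 6. It was higher than in DMSO at day 0 (0.39 ± 0.08, edgeR adjusted p = 4.08e-05), day 4 (0.61 ± 0.07, edgeR adjusted p = 2.3e-10) and day 6 (0.34 ± 0.06, edgeR adjusted p = 4.44e-06). At day 2 its difference was -0.25 ± 0.08 (edgeR adjusted p = 0.0101) and lost the call when replicate 1 of IAA day 2, or replicate 2 or 3 of DMSO day 2, was left out (edgeR adjusted p from 0.0531 to 0.058).

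Perp was at 16.6, 17.6 and 17.0 CPM with IAA at day 0, above all 3 DMSO libraries, and its log2 difference was 0.51 ± 0.13 (edgeR adjusted p = 0.00101). At days 2, 4 and 6 the differences of Perp were 0.24 ± 0.13, -0.01 ± 0.15 and -0.14 ± 0.15, with edgeR adjusted p of 0.111, 0.966 and 0.448. Without DMSO day 2 replicate 1 that of day 2 was 0.41 and passed (edgeR adjusted p = 0.0125). Pkp2 was called at day 0 (0.28 ± 0.11, edgeR adjusted p = 0.0278), a call lost without DMSO day 0 replicate 1 or 2 or IAA day 0 replicate 3 (edgeR adjusted p from 0.0633 to 0.16) and with DESeq2 (adjusted p = 0.0641). Its differences at the later days lay between -0.12 and 0.12.

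Against DMSO, 6 of 9 genes were called higher and 1 lower with IAA at day 0 (21.3% and 23.2% of all genes), 5 higher and 1 lower at day 2 (27.5% and 27.9%), 6 higher and 0 lower at day 4 (25.9% and 25.9%), and 6 higher and 1 lower at day 6 (30.6% and 30.0%). Of the 4 keratins, 2, 3, 4 and 4 were called higher at the successive days. Median log2 differences over the 9 genes were 0.28, 0.49, 0.61 and 0.61, beside -0.03, -0.01, 0 and 0 over all genes. A joint test of whether the IAA difference changed between days called 9 of 9, where 70.1% of all genes were called. Krt8 had the smallest adjusted p of that test (edgeR adjusted p = 3.71e-21) and Pkp2 the largest (edgeR adjusted p = 0.0493), and the call of Pkp2 was lost under 13 of 24 omissions of 1 library (edgeR adjusted p up to 0.12 without IAA day 0 replicate 3) and with DESeq2's likelihood ratio test (adjusted p = 0.122), which called 8 of 9.

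Markers of other cells moved in the same libraries. The summed fibroblast feeder markers stood at 315 ± 4.92 CPM (SD, n = 3) with IAA at day 6 against 163 ± 1.41 CPM in DMSO, with 6 of 10 called higher and 3 lower. At day 4 they were at 138 ± 1.74 against 88.2 ± 2.95 CPM, with 6 called higher and 2 lower, and at day 2 they were at 82 ± 2 against 44.9 ± 1.64 CPM, with 2 called higher, 5 lower, and Dcn and Lum at 0 counts in all 3 IAA libraries. Endoderm markers summed to 320 ± 5.94 CPM with IAA and 515 ± 4.26 CPM in DMSO at day 0 (0 of 8 called higher, 6 lower), 591 ± 12.7 against 438 ± 4.92 CPM at day 2 (6 higher, 2 lower), 885 ± 5.19 against 538 ± 9.24 CPM at day 4 (5 higher, 1 lower) and 730 ± 11 against 800 ± 5.54 CPM at day 6 (2 higher, 4 lower). Trophectoderm markers summed to 107 ± 0.506 CPM with IAA and 72.1 ± 2.26 CPM in DMSO at day 0 (4 of 6 tested called higher, 0 lower). At day 2 they summed to 60.9 ± 3.84 against 72.6 ± 1.51 CPM (2 higher, 1 lower), and at day 4 to 63.3 ± 0.762 against 43.2 ± 2.51 CPM (1 higher, 0 lower). They summed to 67.8 ± 4.57 CPM with IAA at day 6 and 48.6 ± 1.21 CPM in DMSO, with 4 of 6 tested called higher and 1 lower. Markers of stratified epithelium summed to 2.2 to 4.42 CPM across the 12 groups. The stem cell markers were at 3870 ± 18.4 CPM with IAA at day 0 against 2830 ± 48 CPM in DMSO (7 of 8 called higher, 0 lower). At day 2 they were at 1460 ± 14.3 against 2650 ± 22.8 CPM (8 of 8 called lower). They were at 774 ± 3.24 against 1170 ± 50.9 CPM at day 4 (1 called higher, 6 lower). At day 6 they were at 615 ± 15.9 against 691 ± 5.2 CPM (1 higher, 6 lower). Mitochondrial genes held 2.47% to 2.52% of the counts with IAA and 1.35% to 1.45% in DMSO at day 4. The part of these shifts in the keratin and desmosome values was not tested.

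With BPK25, 0 of the 9 tested genes were called by edgeR against DMSO at days 0 and 2, and 8, the 4 keratins among them, were called higher at day 4. Krt8 was at 29.2, 27.6 and 26.3 CPM at day 0, 28.3, 28.5 and 30.7 CPM at day 2, 82.8, 81.8 and 80.7 CPM at day 4, and 82.7, 88.1 and 94.3 CPM at day 6. The day 4 libraries were above all DMSO libraries of day 4 and also above those of day 6. The log2 difference of Krt8 from DMSO at day 4 was 1.21 ± 0.06 (edgeR adjusted p = 2.26e-22).

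Krt18 was at 12.2, 14.1 and 11.8 CPM with BPK25 at day 0, 12.9, 12.1 and 13.8 CPM at day 2, 87.6, 85.0 and 95.3 CPM at day 4, and 67.8, 75.6 and 75.4 CPM at day 6. It was the one keratin with a lower mean at day 6 than at day 4 in this treatment, with no overlap between the days. Its log2 difference from DMSO at day 4 was 1.86 ± 0.07 (edgeR adjusted p = 1.63e-28).

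Krt19 was at 19.0, 18.5 and 21 CPM with BPK25 at day 4, and its log2 difference was 1.36 ± 0.13 (edgeR adjusted p = 1.4e-12). Krt7 was at 2.15, 2.76 and 2.59 CPM, and its log2 difference was 1.08 ± 0.31 (edgeR adjusted p = 0.00259). Neither group overlapped DMSO at day 4. At day 6 the differences were smaller: 0.22 ± 0.05 for Krt8 (edgeR adjusted p = 0.00593), 0.24 ± 0.06 for Krt18 (edgeR adjusted p = 0.00427), 0.26 ± 0.09 for Krt19 (edgeR adjusted p = 0.0629) and 0.08 ± 0.22 for Krt7 (edgeR adjusted p = 0.89). The day 6 call of Krt8 was lost without BPK25 day 6 replicate 3 (edgeR adjusted p = 0.104), where Krt19 gained one (edgeR adjusted p = 0.0456), and that of Krt18 without DMSO day 6 replicate 1 (edgeR adjusted p = 0.0531).

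Of the 5 tested desmosome genes, 4 were called higher with BPK25 at day 4. Dsg2 was at 80.5, 83.0 and 82.1 CPM against 58.8, 64.4 and 60.1 CPM in DMSO (log2 0.42 ± 0.06, edgeR adjusted p = 1.3e-08). Pkp2 was at 17.1, 16.3 and 16.6 CPM against 11.6, 12.9 and 11.8 CPM (0.46 ± 0.10, edgeR adjusted p = 0.000111). Perp was at 11.7, 10.1 and 9.90 CPM against 7.98, 8.10 and 5.88 CPM (0.51 ± 0.14, edgeR adjusted p = 0.00228). These 3 genes had no overlap between the groups.

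Dsc2 was at 53.5, 55.8 and 48.7 CPM with BPK25 at day 4 against 46.2, 43.4 and 40.2 CPM (0.27 ± 0.06, edgeR adjusted p = 0.000327), again without overlap. Jup was at 27.9, 30.1 and 30.6 CPM against 30.3, 29.4 and 29.4 CPM, with a log2 difference of -0.01 ± 0.08 (edgeR adjusted p = 0.91). Jup is thus the gene of the 9 that was not called at this day.

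In all, 8 of 9 genes were called higher and 0 lower with BPK25 at day 4 (26.2% and 26.8% of all genes), with a median log2 difference of 0.51 beside -0.01 over all genes. At day 6, 2 were higher and 0 lower (4.01% and 3.08%). At day 0 edgeR called 0 of 9 (3.32% higher and 4.58% lower over all genes), with 1 at an unadjusted p under 0.05, and at day 2 again 0 of 9 (6.40% and 7.12%), with 1 at an unadjusted p under 0.05. DESeq2 also called 0 of 9 at both days. Without DMSO day 2 replicate 3, Krt8 was called higher at day 2 (log2 0.32, edgeR adjusted p = 0.0151).

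The joint test of whether the BPK25 difference changed between days called 7 of 9 (47.1% of all genes), all but Jup (edgeR adjusted p = 0.198) and Perp (edgeR adjusted p = 0.0507). Without day 4 it called 0 of 9, with 0 at an unadjusted p under 0.05, where 8.05% of all genes were called. With DESeq2's likelihood ratio test over the 4 days, added after seeing the data, 5 of 9 were called for BPK25, without Krt7 (adjusted p = 0.0744) and Pkp2 (adjusted p = 0.0781). The joint call of Krt7 (edgeR adjusted p = 0.0492) was lost under 14 of 24 omissions of 1 library (edgeR adjusted p up to 0.19 without DMSO day 4 replicate 1), and that of Pkp2 (edgeR adjusted p = 0.0179) without DMSO day 2 replicate 3, BPK25 day 4 replicate 1 or DMSO day 4 replicate 1 (edgeR adjusted p up to 0.0737). Perp passed under 7 of the 24 omissions, at edgeR adjusted p = 0.0245 without BPK25 day 0 replicate 3.

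Fibroblast feeder markers were lower in sum with BPK25 at day 4: they summed to 74.1 ± 2.16 CPM against 88.2 ± 2.95 CPM in DMSO, with 1 of 10 called higher, 5 lower, and Dcn and Lum at 0 counts in all 3 libraries. Trophectoderm markers summed to 47.2 ± 2.2 against 43.2 ± 2.51 CPM (3 of 6 called higher, 1 lower), and endoderm markers to 431 ± 8.65 against 538 ± 9.24 CPM (2 of 8 called higher, 5 lower). Mitochondrial genes held 1.86% to 2.06% of the counts in BPK25 and 1.35% to 1.45% in DMSO at day 4. The part of the mitochondrial share in the result was not tested.

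**Figure D3:**
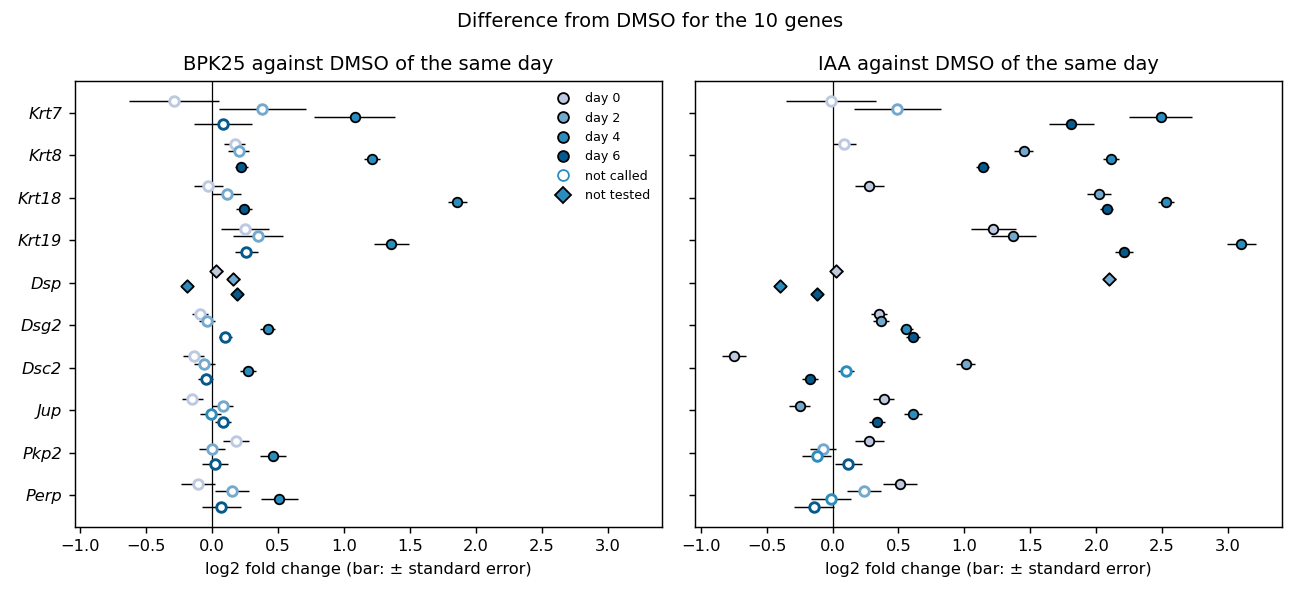
Log2 difference of BPK25 (left) and IAA (right) from DMSO of the same day for the 10 genes, with bars of ± 1 standard error. Filled circles passed edgeR's test at an adjusted p under 0.05, open circles did not, and diamonds mark Dsp, which was not tested. The bars of Dsp are descriptive and do not account for its choice by the IAA response. The keratin differences with BPK25 are largest at day 4, from 1.08 to 1.86, and those with IAA at day 4 reach 3.10 for Krt19.

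BPK25 and IAA were also compared directly, although the labels give no dose for either. At day 2 Krt8 was lower with BPK25 than with IAA by a log2 difference of -1.25 ± 0.06 (edgeR adjusted p = 9.16e-23), Krt18 by -1.91 ± 0.08 (edgeR adjusted p = 3.41e-26) and Dsc2 by -1.08 ± 0.07 (edgeR adjusted p = 1.9e-19). Dsp was at 219 to 241 CPM with BPK25 and 846 to 911 CPM with IAA. At day 4 the 4 keratins were lower with BPK25, from -0.66 ± 0.05 for Krt18 to -1.75 ± 0.09 for Krt19, and so was Jup at -0.62 ± 0.07. Pkp2 (0.58 ± 0.10, edgeR adjusted p = 1.32e-06) and Perp (0.52 ± 0.14, edgeR adjusted p = 0.00117) were higher.

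Counted over the 9 genes, BPK25 was higher than IAA for 1 and lower for 5 at day 0 (24.8% and 23.1% of all genes), 1 and 5 at day 2 (29.2% and 28.4%), 3 and 6 at day 4 (27.2% and 27.1%), and 0 and 6 at day 6 (27.7% and 28.8%). At day 6 the 4 keratins, Dsg2 and Jup were the 6 lower genes. The day 0 call of Krt18 (edgeR adjusted p = 0.0122) was lost without BPK25 day 0 replicate 1 or 3 or IAA day 0 replicate 3 (at most 0.0939). At day 4 that of Dsg2 (edgeR adjusted p = 0.0185) was lost without BPK25 day 4 replicate 1 or IAA day 4 replicate 3 (at most 0.137), and that of Dsc2 (edgeR adjusted p = 0.0137) without BPK25 day 4 replicate 1 or 2 (at most 0.0916).

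To compare genes with each other, levels were divided by the length of each gene's merged exons. In DMSO at day 0, Dsp had the highest level per length of the 10, at 24.6 CPM per kb, followed by Krt8 at 12.6, Krt18 at 8.93 and Dsg2 at 8.25. With IAA at day 6, Krt18 was at 181 CPM per kb, Krt8 at 85.5, Krt19 at 65.8 and Dsp at 64.8. The lowest level per length was that of Krt7 in both groups, 0.25 and 1.44 CPM per kb, but its exon union of 7.05 kb includes models that are longer than a keratin coding transcript and lowers this value.

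The levels of the pairing partners shifted against each other. The ratio of type I (Krt18 plus Krt19) to type II (Krt7 plus Krt8) keratin, both in CPM per kb, was 0.935 ± 0.108 (SD, n = 3) in DMSO at day 0, 0.837 ± 0.069 at day 2, 1.17 ± 0.0607 at day 4 and 1.45 ± 0.0348 at day 6. With IAA it was 1.34 ± 0.0776, 1.13 ± 0.101, 1.70 ± 0.0874 and 2.85 ± 0.147 at days 0, 2, 4 and 6. With BPK25 it was 0.874 ± 0.0465, 0.806 ± 0.0184, 1.73 ± 0.123 and 1.49 ± 0.0873. These ratios are descriptions on the scale of RNA per length and were not tested. At day 4 Krt19 made up 19.4% ± 1.67 of the type I level in DMSO, 14.5% ± 0.103 with BPK25 and 26.4% ± 1.21 with IAA. At day 0 the shares were 25.6% ± 3.67, 29.6% ± 3.63 and, the highest of the 12 groups, 39.9% ± 3.25.

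**Figure D4:**
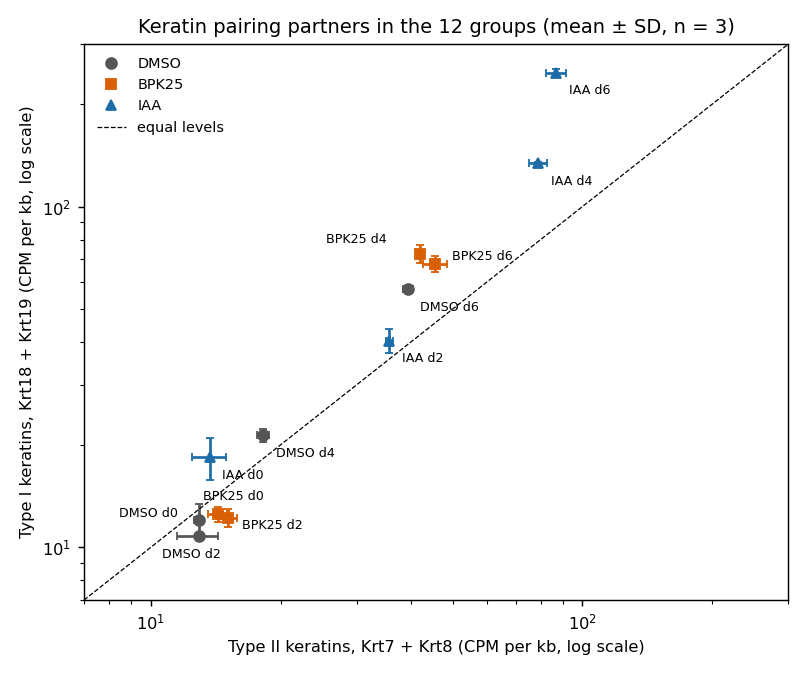
Summed type I keratin level (vertical, log axis) against summed type II keratin level (horizontal, log axis), both in CPM per kb of merged exon, for the 12 groups (mean ± SD, n = 3); the dashed line marks equal levels. IAA at day 6 lies farthest above the line, at a ratio of 2.85. The means of DMSO and BPK25 at days 0 and 2 lie below the line. In DMSO at day 0 the ratio was 0.935 ± 0.108 (SD), a spread that crosses equal levels.

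The span of the group means differed between the genes: the highest mean was 26.7 times the lowest for Krt19, 21.8 times for Krt18, 8.55 times for Krt7, 6.77 times for Krt8, 4.28 times for Dsp, 3.27 times for Dsc2, 2.63 times for Perp, 2.62 times for Jup, 1.64 times for Dsg2 and 1.5 times for Pkp2. Over the 12 group means of log2 CPM, Pearson's r was 0.988 for Krt8 and Krt18, 0.951 for Krt7 and Krt19, 0.888 for Dsp and Dsc2, and 0.759 for Krt8 and Dsp. Perp ran against the keratins, with r of -0.675 to Krt8 and -0.674 to Krt18, and so did Pkp2, with -0.582 and -0.54. Both were also negative to Dsp, at -0.618 for Perp and -0.539 for Pkp2. Between Pkp2 and Perp r was 0.858. The groups share days and treatments and are not independent, so these values are descriptive.

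Among genes with at least 5 CPM in a group, those most like Dsp over the 12 group means were Tbc1d12 (r = 0.986), Acadvl (0.976), Ccng2 (0.975), Hsbp1 (0.974) and Rnf216 (0.971). Ccng2, for example, was at 13.7 ± 1.23 CPM (SD, n = 3) in DMSO at day 2 and 40.8 ± 2.84 CPM with IAA at day 2. Those most like Krt8 were Gpc3 (r = 0.995), Krt18 (0.988), Nes (0.986), Igf2 (0.981) and Ntf3 (0.979). Gpc3, a cell surface glypican, was at 46.8 ± 2.35 CPM in DMSO at day 0 and 654 ± 39.4 CPM with IAA at day 6. Igf2, an imprinted growth factor gene, was at 2.11 ± 0.78 and 1080 ± 11.4 CPM in the same groups. No gene of the list for Dsp was a keratin or a desmosome gene.

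Few of the other desmosome and keratin genes had enough counts for the test. Of 11 further desmosome genes, 4 were tested (Ppl, Evpl, Pkp3 and Dsc3), and of 15 further keratins 6. Ppl and Evpl, at 24.2 ± 2.56 and 22.2 ± 1.13 CPM in DMSO at day 0, were the most abundant of these 4. With BPK25 at day 4, 4 of 4 of these desmosome genes were called higher (median log2 0.63), among them envoplakin, Evpl, at 25.1 ± 0.619 against 15.5 ± 0.481 CPM (0.70, edgeR adjusted p = 1.5e-08), and periplakin, Ppl, at 43.7 ± 2.36 against 29.7 ± 3.16 CPM (0.57, edgeR adjusted p = 1.32e-08). With IAA at day 4 both were lower, Evpl by a log2 difference of -0.43 (edgeR adjusted p = 0.000605) and Ppl by -0.55 (edgeR adjusted p = 2.94e-07), and Pkp3 was higher (0.62, edgeR adjusted p = 0.0066). Of the 6 keratins, 3 were called higher with BPK25 at day 4 and 1 with IAA at day 4. Krt20, the most abundant of them, stood at 6.50 ± 0.999 CPM with BPK25 and 3.91 ± 0.58 CPM in DMSO at day 4. Over all genes, 26.2% were called higher and 26.8% lower with BPK25 at day 4, and 25.9% in either direction with IAA. With IAA at day 0, 2 of the 4 desmosome genes (median 0.34) and 4 of the 6 keratins (1.11) were higher. At that day 0 of either list were lower (21.3% and 23.2% of all genes). At day 2, 0 of either list were higher and 2 of each lower (27.5% and 27.9%). At day 6, 1 of each was higher and 1 lower (30.6% and 30.0%).

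Of 6 non-keratin intermediate filament genes, 2 were called higher and 4 lower with BPK25 at day 4 (median log2 -0.41), 2 and 4 with IAA at day 6 (-0.29), and 3 and 1 with IAA at day 2 (0.49). Vimentin, Vim, the filament protein of mesenchymal cells, rose in DMSO from 165 ± 9.15 CPM at day 0 to 244 ± 3.61 CPM at day 6 (log2 0.56, edgeR adjusted p = 3.06e-15). It was at 161 ± 4.07 CPM with BPK25 and 209 ± 6.06 CPM in DMSO at day 4 (log2 -0.38, edgeR adjusted p = 6.12e-10). With IAA at day 6 Vim was at 181 ± 7.24 against 244 ± 3.61 CPM (-0.43, edgeR adjusted p = 8.83e-12), and at day 2 at 257 ± 9.04 against 128 ± 9.42 CPM (1.01, edgeR adjusted p = 3.2e-24). Plectin, Plec, which links filaments to junctions and to each other, was higher, at 220 CPM against 116 CPM with BPK25 at day 4 (0.93 ± 0.05, edgeR adjusted p = 8.56e-23) and 157 CPM against 136 CPM with IAA at day 6 (0.21 ± 0.05, edgeR adjusted p = 0.000105). Plec is from a separate list of 7 filament linker and hemidesmosome genes. Of these, 5 were called higher and 1 lower with BPK25 at day 4 (median log2 0.39). With IAA, 7 were higher and 0 lower at day 0 (0.7), and 4 and 3 at day 2 (0.14). The counts were 3 and 2 at day 4 (0.13), and 4 and 3 at day 6 (0.21). Of the 6 filament genes, 3 were higher and 1 lower with IAA at day 0, and 2 and 4 at day 4. Over all genes, 26.2% were called higher and 26.8% lower with BPK25 at day 4. With IAA the shares were 21.3% and 23.2% at day 0, and 27.5% and 27.9% at day 2. They were 25.9% and 25.9% at day 4, and 30.6% and 30.0% at day 6.

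Other junction genes were also called higher with BPK25 at day 4 and with IAA at day 6, but fewer were in DMSO. From DMSO day 0 to day 6, 1 of 11 tight junction genes was called higher and 3 lower (median log2 -0.13). Of 10 adherens junction genes, 3 were higher and 3 lower (-0.05). Over all genes, 33.2% were called higher and 29.5% lower in that comparison. The shares were 26.2% and 26.8% with BPK25 at day 4, and 30.6% and 30.0% with IAA at day 6. Of 11 tight junction genes, 9 were called higher and 1 lower with BPK25 at day 4 (median log2 0.89) and 10 higher and 0 lower with IAA at day 6 (0.99). Cingulin, Cgn, a tight junction plaque protein, was at 83.4 against 41.6 CPM with BPK25 at day 4 (1.00 ± 0.06, edgeR adjusted p = 3.68e-19) and at 158 against 39.2 CPM with IAA at day 6 (2.02 ± 0.06, edgeR adjusted p = 3.42e-33). Of 10 adherens junction genes, 5 were called higher and 1 lower with BPK25 at day 4 (median 0.15) and 6 higher and 3 lower with IAA at day 6 (0.35). E-cadherin, Cdh1, was at 242 CPM in DMSO at day 0 and 132 CPM at day 6 (-0.87 ± 0.04, edgeR adjusted p = 1.54e-23), and it was higher than in DMSO with BPK25 at day 4 (385 against 186 CPM, edgeR adjusted p = 4.18e-27) and with IAA at day 6 (376 against 132 CPM, edgeR adjusted p = 1.08e-33).

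Of 14 tested epithelial regulators and surface markers, 7 were called higher and 1 lower with BPK25 at day 4 (median 0.50) and 10 higher and 1 lower with IAA at day 6 (0.78). Elf3, an epithelial ETS factor, was at 161 against 47.4 CPM with IAA at day 2 (1.76 ± 0.06, edgeR adjusted p = 5.73e-31) and at 87.3 against 103 CPM with BPK25 at day 4 (-0.24 ± 0.05, edgeR adjusted p = 0.000112). Of 6 tested mesenchymal regulators, 6 were called higher in DMSO from day 0 to day 6 (median 0.99), 5 lower and 1 higher with BPK25 at day 4 (-0.80), and 4 higher and 0 lower with IAA at day 6 (0.95). Snai1, a repressor of Cdh1, was at 2.57 CPM with BPK25 and 5.42 CPM in DMSO at day 4 (-1.07 ± 0.20, edgeR adjusted p = 1.01e-05). The medians of all genes in these comparisons lay between -0.01 and 0.03, and the shares of all genes called are given above.

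A near-identical gene model limits one of the values. The processed pseudogene Krt8-ps is 98.6% identical to a Krt8 transcript over 941 bases and held 2125 counts beside 24197 for Krt8 in all libraries, from 5.5% to 10.5% of the Krt8 counts by group, so part of either count may belong to the other. The strand setting of the counting is unknown. Models on the opposite strand overlap exons of Krt7, Krt8, Dsp and Dsg2, and held 0, 120, 51 and 26 counts beside 1067, 24197, 190961 and 25747 for these genes.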

How the data were processed

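The authors deposited 1 table of whole-number counts per gene for 36 libraries prepared from polyA RNA (SMARTer kit, per the labels' protocols). The submitters' processing notes name FastQC 0.11.7, HISAT2 2.1.0, featureCounts 2.0.1, DESeq2 and the build mm10; strand and annotation release: not given in the sources used here. Of the table's IDs, 54587 (98.6%) match GENCODE M21, which gave positions and exon lengths.

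From these counts, edgeR 4.0.16 (R 4.3.3) was fitted once on all 12 groups: filterByExpr (minimum count 10) kept 17394 genes, including all 10 members, TMM scaling was applied, and quasi-likelihood tests were adjusted by Benjamini-Hochberg over all of them. The biological coefficient of variation was 3.86%. A standard error is the size of the log2 fold change divided by the square root of F. Joint tests asked whether a treatment's difference from DMSO changed over the 4 days. CPM use TMM library sizes. Since Dsp was chosen by the IAA effect over days, which uses DMSO and IAA libraries, it is untested throughout, BPK25 included. The code was tested on simulated data.

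Groups come from the labels. Over 36 pairs of libraries of the same group, the chi-square per degree of freedom was 1.38 to 3.07, so no pair agreed within sampling noise.

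The members and the gene lists were chosen with earlier results of these data known. All 10 members are named in every comparison where they bear on it; from other lists, up to 4 genes with the highest mean CPM could be named; the genes most like Dsp and Krt8 are the 5 of highest r, leaving out Gm and Rik models. Alternatives were DESeq2 1.42.0, RLE scaling, other low-count filters, only the compared libraries, a replicate block and leaving out each library. The joint BPK25 test was also run without day 4, and the joint IAA test was not. A DESeq2 likelihood ratio test was added after seeing the data. Near-identical transcripts were searched with blastn 2.17.0. Protein sequences were not used here.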

Additional observations from a re-analysis of the deposited data

Results flagged for a closer look

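The difference of a treatment from DMSO changed between days in a joint edgeR test for these genes, none of which includes Dsp. For IAA the adjusted p was 3.71e-21 for Krt8, 2.59e-18 for Krt18, 3.44e-18 for Dsc2, 3.59e-11 for Krt19, 3.8e-08 for Jup, 2.74e-06 for Krt7, 0.00437 for Dsg2, 0.0165 for Perp and 0.0493 for Pkp2. Dsc2 and Jup are the genes whose called differences take both signs. Dsc2 was lower than DMSO at days 0 and 6 and higher at day 2. Jup was higher at days 0, 4 and 6 and lower at day 2, where its groups overlapped. The day 6 call of Dsc2 and the day 2 call of Jup were lost under some omissions of 1 library.

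For BPK25 the adjusted p was 1.47e-21 for Krt18, 6.44e-15 for Krt8, 9.71e-07 for Krt19, 1.87e-06 for Dsg2, 0.00157 for Dsc2, 0.0179 for Pkp2 and 0.0492 for Krt7. The same test over days 0, 2 and 6 called 0 of 9 genes, where it called 8.05% of all genes. In DESeq2's likelihood ratio test the adjusted p was 0.0744 for Krt7 and 0.0781 for Pkp2 with BPK25, and 0.122 for Pkp2 with IAA.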

How the results depend on the processing

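No called difference of a single gene reversed its direction under any alternative run. This does not extend to differences that were not called, whose sign can change with the libraries used. Leaving out 1 library at a time gave 1242 results, of which 1173 kept their side of the threshold, 56 lost a call and 13 gained one; the other alternatives gave 923, of which 899 kept it, 23 lost a call and 1 gained one. The count of called genes moved by more than 1.5 times in 4 settings: DMSO day 2 against day 0 went from 0 to 1 without DMSO day 2 replicate 2 (range over single omissions 0 to 1), BPK25 at day 2 from 0 to 1 without DMSO day 2 replicate 3 (0 to 1), BPK25 at day 6 from 2 to 1 without DMSO day 6 replicate 1 (1 to 2), and the joint BPK25 test from 7 to 0 without day 4. With no filter on low counts, calls were lost for Dsg2 (DMSO day 4 against day 0), Pkp2 (DMSO day 6 and both joint tests), Dsc2 (BPK25 against IAA at day 4) and Krt7 (joint BPK25 test); the cause was not tested. With the replicate number as a block, 8 of 9 genes were called in BPK25 at day 4 and 7 of 9 in IAA at day 6, the counts without it; the joint BPK25 test again called 7, with Perp in (0.0336) and Krt7 out (0.0502). Same-numbered libraries showed little common deviation: in 0 of 15 comparisons was every pair's correlation over 0.1 (range -0.146 to 0.211). The highest values were in BPK25 against IAA at day 2, from 0.0779 to 0.211. The labels do not say what a replicate number stands for, and a shared culture or batch was not tested. DESeq2's likelihood ratio test called 5 of 9 genes for BPK25, in place of 7, and 8 of 9 for IAA, in place of 9. Krt7 had 10 to 16 counts per library in DMSO at day 0.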
